A study of Mus musculus with 6 samples.

Results

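The NKG2, CD94, KLRE and KLRI receptors are C-type lectin-like proteins of natural killer (NK) cells, and their 8 genes in the mouse (Klrc1, Klrc2, Klrc3, Klrd1, Klrk1, Klre1, Klri1 and Klri2) were described here by gene symbol. All 8 were among the 57180 genes of the table. RNA had been sequenced from liver NK cells of fibrotic male C57BL/6J mice, 6 to 8 weeks of age, with 3 libraries titled CD36+ NK and 3 titled CD36- NK. Both fractions shared the same treatment, intraperitoneal CCl4 (2.5 ml/kg of a 20% solution in olive oil, 2 injections per week over 4 weeks) with harvest 48 h after the final dose. The sort on surface CD36 set them apart. The study defines NK cells as CD3- NK1.1+ in its flow cytometry, and the gate of the sort for sequencing is not stated. How many animals gave each library is not stated, and there was no oil-treated group in the sequencing.

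CD94 (Klrd1) is the shared chain of a group of heterodimers. With NKG2A (Klrc1) it forms an inhibitory receptor for the nonclassical class I molecule Qa-1, and with NKG2C (Klrc2) or NKG2E (Klrc3) an activating one that signals through the adaptor DAP12. NKG2D (Klrk1) is a homodimer that pairs with the adaptors DAP10 and DAP12 and binds stress-induced ligands of the RAE-1, H60 and MULT1 families. KLRE1 (Klre1) pairs with KLRI1 (Klri1), which inhibits, or KLRI2 (Klri2), which activates.

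The genes lie together in the NK gene complex on chromosome 6, within 162580 bases from Klre1 to Klri2 by the positions in the table. The order along the chromosome is Klre1 (129554868 to 129562790, plus strand), Klrd1 (129568745 to 129575738, plus), Klrk1 (129587286 to 129600827, minus), Klrc3 (129616027 to 129620300, minus), Klrc2 (129624459 to 129637652, minus), Klrc1 (129642978 to 129655936, minus), Klri1 (129674181 to 129694095, minus) and Klri2 (129706004 to 129717447, minus). The build of these positions is not given in the sources used here.

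The difference between inhibitory and activating members can be read in the start of the coding sequence, which encodes the cytoplasmic tail. The first 162 coding bases of 5 members follow, from the GENCODE M21 transcripts (GRCm38), read in the direction of the gene. Capitals mark the 6 codons of each match to the immunoreceptor tyrosine-based inhibitory motif (ITIM), a tyrosine motif that recruits phosphatases, searched within the first 60 codons of all 8 members.
Klrc1: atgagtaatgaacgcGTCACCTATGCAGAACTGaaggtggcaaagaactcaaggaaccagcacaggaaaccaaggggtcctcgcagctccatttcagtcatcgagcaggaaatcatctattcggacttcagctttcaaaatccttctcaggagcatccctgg
Klrc2: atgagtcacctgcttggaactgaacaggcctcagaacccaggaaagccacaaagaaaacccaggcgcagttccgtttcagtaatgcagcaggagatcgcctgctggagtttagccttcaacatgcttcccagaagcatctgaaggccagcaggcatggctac
Klrc3: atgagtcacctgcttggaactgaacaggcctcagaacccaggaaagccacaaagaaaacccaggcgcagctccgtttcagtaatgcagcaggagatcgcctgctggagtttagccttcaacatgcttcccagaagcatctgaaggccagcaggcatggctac
Klri1: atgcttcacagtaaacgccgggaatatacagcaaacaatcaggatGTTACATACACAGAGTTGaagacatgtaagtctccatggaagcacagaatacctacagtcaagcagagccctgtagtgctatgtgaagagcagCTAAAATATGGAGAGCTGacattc
Klri2: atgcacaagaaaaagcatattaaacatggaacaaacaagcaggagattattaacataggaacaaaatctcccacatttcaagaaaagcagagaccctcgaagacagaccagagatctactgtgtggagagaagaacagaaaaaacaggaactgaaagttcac
Klrc1 had 1 match, at tyrosine codon 8, and Klri1 had 2, at codons 18 and 49. The other 6 members, Klrc2, Klrc3, Klrd1, Klrk1, Klre1 and Klri2, had 0. Klrc2 and Klrc3 were identical in 161 of these 162 bases. Over the whole coding sequence they were 88.5% identical, and 16.9% of the 100-base windows of Klrc2 occurred unchanged in Klrc3, so fragments could have been split between them in counting and their separate values are uncertain. Klrc1 and Klrc2 shared 81.0% of aligned bases, with 0.158% of the windows of Klrc1 found in Klrc2. Klri1 and Klri2 shared 77.5% of aligned bases and 0 such windows.

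Every one of the 8 receptors was lower in CD36+ NK than in CD36- NK, by 2.16 to 6.14 times, and the lowest CD36- NK library lay above the highest CD36+ NK library in each. All 8 passed the low-count filter and were called in edgeR's quasi-likelihood test (adjusted p below 0.05, Benjamini-Hochberg over 14761 genes, and fold change above 2). Of all tested genes, 5.96% were called in either direction and 2.98% lower, 5.44% were lower by adjusted p alone, and 15.7% were lower without overlap between the groups. The median log2 fold change (log2FC, CD36+ NK over CD36- NK, with its standard error as SE) was -2.40 for the receptors, against 0.012 over all tested genes. Their summed level was 319 to 408 CPM (counts scaled to library size, with TMM factors) in CD36+ NK and 1604 to 2161 CPM in CD36- NK. In bulk libraries, fewer cells that carry a transcript and less of it per cell cannot be told apart.

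The titles and the names of the sequencing libraries use the CD36 sign differently, and the titles were followed. Cd36 itself was at 109.7, 263 and 238 CPM in the libraries titled CD36+ NK and at 14.3, 31.7 and 17.1 CPM in those titled CD36- NK, so the titles and the transcript had the same order. Totals ran from 10292480 to 13787189 counts per library. The series is described as biological triplicates, without stating separate animals.

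Klrd1, the CD94 chain, had the highest level per length of the family in both fractions. It was at 55.5, 60.2 and 47.1 CPM in the 3 CD36+ NK libraries and at 243, 230.3 and 291 CPM in the 3 CD36- NK libraries. Its log2FC was -2.23 (SE 0.138, edgeR adjusted p = 0.000428), that is 4.69-fold lower in CD36+ NK.

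Klrc1, which encodes the inhibitory partner NKG2A, was at 42.2, 48.2 and 40.9 CPM in CD36+ NK and at 195, 208 and 248 CPM in CD36- NK. Its log2FC was -2.31 (SE 0.127, edgeR adjusted p = 0.000428). The CD36+ NK libraries stayed within a narrow range and far under the others. Klrc2, which encodes the activating partner NKG2C, was at 40.9, 55.6 and 37.9 CPM and at 227, 272 and 326 CPM, a log2FC of -2.62 (SE 0.197, edgeR adjusted p = 0.000788). Klrc3, which encodes NKG2E, was the least counted of the CD94 partners, with 35 to 55 counts per CD36+ NK library and 222 to 260 per CD36- NK library. Its CPM were 3.83, 4.05 and 2.91 against 19.2, 19.6 and 25.4, and its log2FC was -2.57 (SE 0.198, edgeR adjusted p = 0.000896). The inhibitory and the activating partners of CD94 both fell. Klrc2 and Klrc3 differed in log2FC by less than either SE, and their order turned without CD36+ NK replicate 1 (-2.57 for Klrc2 and -2.62 for Klrc3) and without replicate 1 of both groups (-2.69 and -2.70).

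Klrk1, which encodes NKG2D, was the most counted member, at 91.1, 117 and 93.4 CPM in CD36+ NK and at 372, 452 and 569 CPM in CD36- NK. Its log2FC was -2.21 (SE 0.185, edgeR adjusted p = 0.00125). CD36- NK replicate 3 was the highest library for this gene, as it was for all the other members.

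Klre1 and Klri2, which encode a receptor chain and its activating partner, were both lower. Klre1 was at 48.5, 55.0 and 40.0 CPM in CD36+ NK and at 255, 244 and 311 CPM in CD36- NK (log2FC -2.50, SE 0.156). Klri2 was at 51.3, 63.6 and 52.0 CPM and at 283, 306 and 378 CPM (log2FC -2.53, SE 0.150). The edgeR adjusted p was 0.000428 for each.

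Klri1, which encodes the inhibitory KLRI1, fell least. It had 57 to 62 counts per CD36+ NK library and 107 to 128 per CD36- NK library, or 5.07, 4.56 and 4.99 CPM against 9.84, 9.46 and 12.3 CPM. The groups did not overlap, and the CD36+ NK libraries were close to each other. The log2FC was -1.11 (SE 0.178, edgeR adjusted p = 0.0117), that is 2.16-fold lower, near the fold threshold of 2. The call was lost without CD36+ NK replicate 2 (log2FC -1.06, adjusted p = 0.0574), without CD36- NK replicate 3 (-0.99, adjusted p = 0.0424, fold below 2) and without replicate 1 of both groups, whose library names have another form (-1.20, adjusted p = 0.0707). The other 7 members kept their calls in each of these fits.

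**Figure D1:**
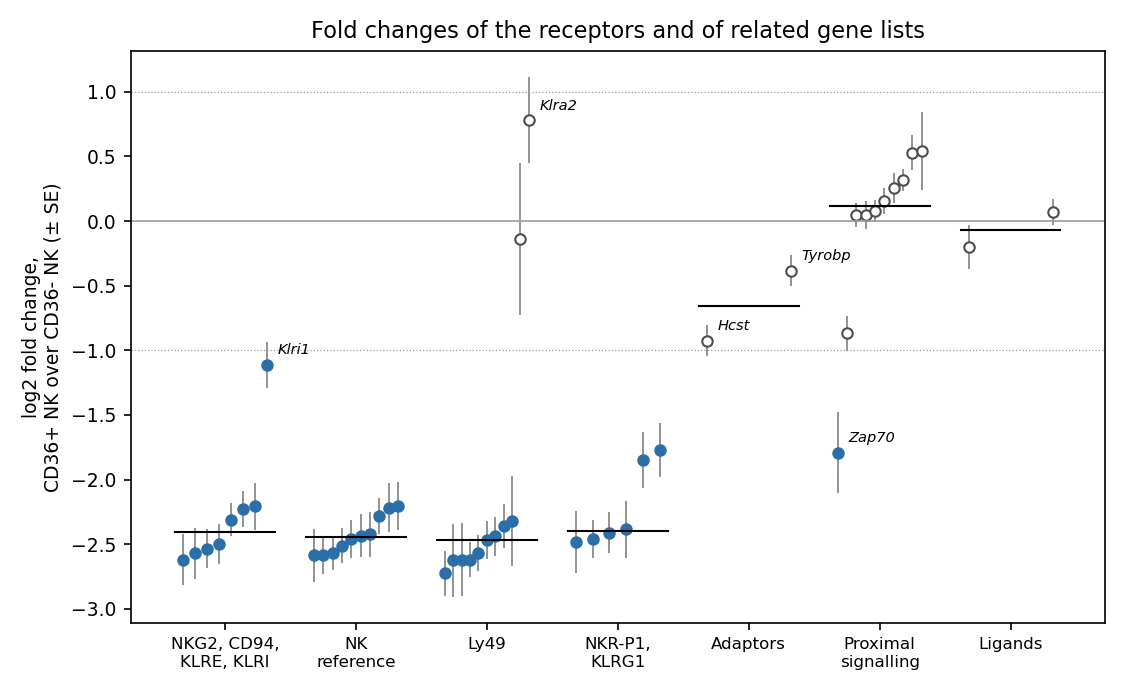
Log2 fold change (CD36+ NK over CD36- NK) with its SE for each tested gene of the receptors, NK reference genes, Ly49 and NKR-P1 receptors, adaptors, proximal signalling proteins and ligands. Filled points were called, open points were not, black lines are list medians and dotted lines mark a fold of 2. Of the receptors, 7 lie between -2.62 and -2.21, with Klri1 at -1.11, while adaptors and ligands lie above -1.

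Levels of different genes were compared by the deposited FPKM, which is scaled to gene length. In CD36- NK the order was Klrd1 (96.7 ± 10.6, SD, n = 3), Klri2 (83.3 ± 11.7), Klrc1 (83.2 ± 9.59), Klre1 (64.2 ± 7.52), Klrk1 (51.5 ± 10.4), Klrc2 (37.7 ± 6.43), Klrc3 (19.1 ± 2.80) and Klri1 (12.7 ± 1.66). Ranges of neighbours overlapped for Klrd1 and Klri2, Klri2 and Klrc1, Klre1 and Klrk1, and Klrk1 and Klrc2, and were apart for the others. In CD36+ NK the order was Klrd1 (20.1 ± 2.81), Klrc1 (16.4 ± 1.60), Klri2 (13.99 ± 1.78), Klre1 (11.1 ± 1.92), Klrk1 (10.9 ± 1.58), Klrc2 (5.98 ± 1.295), Klri1 (5.73 ± 0.381) and Klrc3 (3.13 ± 0.588). Here only Klrk1 and Klrc2, and Klri1 and Klrc3, were apart from their next neighbour. The least expressed gene was therefore Klri1 in CD36- NK and Klrc3 in CD36+ NK. The lengths implied by counts and FPKM ran from 0.838 kb for Klri1 to 9.12 kb for Klrk1, so that Klrk1 led by counts and was the fifth by FPKM.

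The composition of the CD94 partners was compared by their FPKM. Klrc1 made up 64.2%, 62.2% and 66.8% of the summed FPKM of Klrc1, Klrc2 and Klrc3 in the CD36+ NK libraries and 60.7%, 59.3% and 58.5% in the CD36- NK libraries. The groups did not overlap, with the inhibitory NKG2A transcript at the higher share in CD36+ NK (two-sided exact permutation p = 0.1, which is the lowest that 3 libraries against 3 can reach). Within the libraries, the log2 ratio of Klrc1 to Klrc2 was -0.016 ± 0.166 (SD, n = 3) for CD36+ NK against -0.334 ± 0.096 for CD36- NK, a difference of 0.32 (exact permutation p = 0.1, adjusted p = 0.133 over 4 ratios). Neither value can pass 0.05 in this design.

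For Klrk1 to Klrd1 the libraries overlapped, with a log2 ratio of 0.886 ± 0.150 (SD, n = 3) for CD36+ NK against 0.852 ± 0.203 for CD36- NK, a difference of 0.034 smaller than either SD (exact permutation p = 0.7, adjusted p = 0.7). Klre1 to Klrd1, which are neighbours on the plus strand, was at -0.187 ± 0.053 and 0.082 ± 0.012, a difference of -0.27 without overlap (exact permutation p = 0.1, adjusted p = 0.133). The widest shift was in the KLRI genes. The log2 ratio of Klri2 to Klri1 was 3.29, 3.76 and 3.34 in the CD36+ NK libraries and 4.83, 4.99 and 4.92 in the CD36- NK libraries, a difference of -1.45 without overlap (exact permutation p = 0.1, adjusted p = 0.133). Relative to the activating Klri2, the inhibitory Klri1 was thus at a higher share in each CD36+ NK library.

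**Figure D2:**
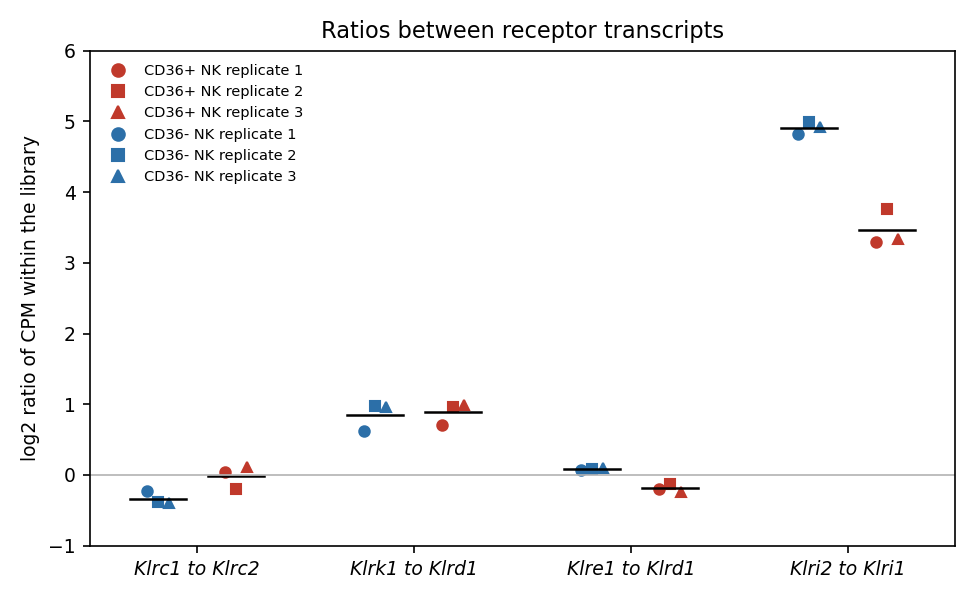
Log2 ratio of CPM between 2 receptor transcripts within each library, for 4 gene combinations. Points are libraries and black lines are group means. Groups overlap for Klrk1 to Klrd1 and are apart for the other 3 ratios, most for Klri2 to Klri1 (3.29 to 3.76 in CD36+ NK, 4.83 to 4.99 in CD36- NK).

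The receptors were then set against 10 other genes of NK cells, the NK reference genes Ncr1, Eomes, Tbx21, Il2rb, Prf1, Gzma, Nkg7, Txk, Klrb1c and Itga2. All 10 were called lower, and the median log2FC was -2.45, with a range from -2.59 to -2.20. Those with the most counts were Gzma, which encodes granzyme A, Il2rb, a receptor chain for IL-2 and IL-15, and Nkg7, a granule protein, with log2FC values of -2.57, -2.20 and -2.42. Within each library, the level of a receptor was expressed as its log2 CPM minus the mean log2 CPM of these 10 genes. For Klrc1, Klrc2, Klrc3, Klrk1, Klre1 and Klri2 the groups overlapped on this scale, with differences between -0.20 and 0.23 and exact permutation p from 0.2 to 0.4. With 1 library left out in turn, the difference ran from -0.315 to -0.113 for Klrc2 and from 0.10 to 0.324 for Klrk1. It ran from 0.066 to 0.18 for Klrc1, from -0.153 to -0.039 for Klrc3 and from -0.174 to -0.023 for Klri2. Without CD36+ NK replicate 2 that of Klre1 was -0.133 with the groups apart (exact permutation p = 0.1, the smallest possible there). The groups also came apart for Klrc1, Klrc2, Klrc3, Klrk1 and Klri2 with some library left out (exact permutation p = 0.2). Klrd1 lay higher in each CD36+ NK library by a small amount, at -0.634 ± 0.054 (SD, n = 3) against -0.830 ± 0.028, a difference of 0.20 (exact permutation p = 0.1, adjusted p = 0.4 over the 8 genes).

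Klri1 had the widest difference of the 8 on this scale. It was at -4.06, -4.25 and -3.88 in the CD36+ NK libraries and at -5.46, -5.38 and -5.38 in the CD36- NK libraries, a difference of 1.34 (exact permutation p = 0.1, adjusted p = 0.4). When libraries were scaled to the summed counts of the NK reference genes and the edgeR test was repeated, Klri1 was higher in CD36+ NK with a log2FC of 1.32 (SE 0.257, adjusted p = 0.000461), and it was the only receptor of the 8 called. That scaling moves the median log2FC of all tested genes from 0.012 to 2.42, and 14334 of 14761 genes are called under it, so the call alone does not set Klri1 apart from other genes. Without CD36+ NK replicate 2, the difference for Klri1 was 1.44, and with each other library left out in turn it lay between 1.249 and 1.36.

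**Figure D3:**
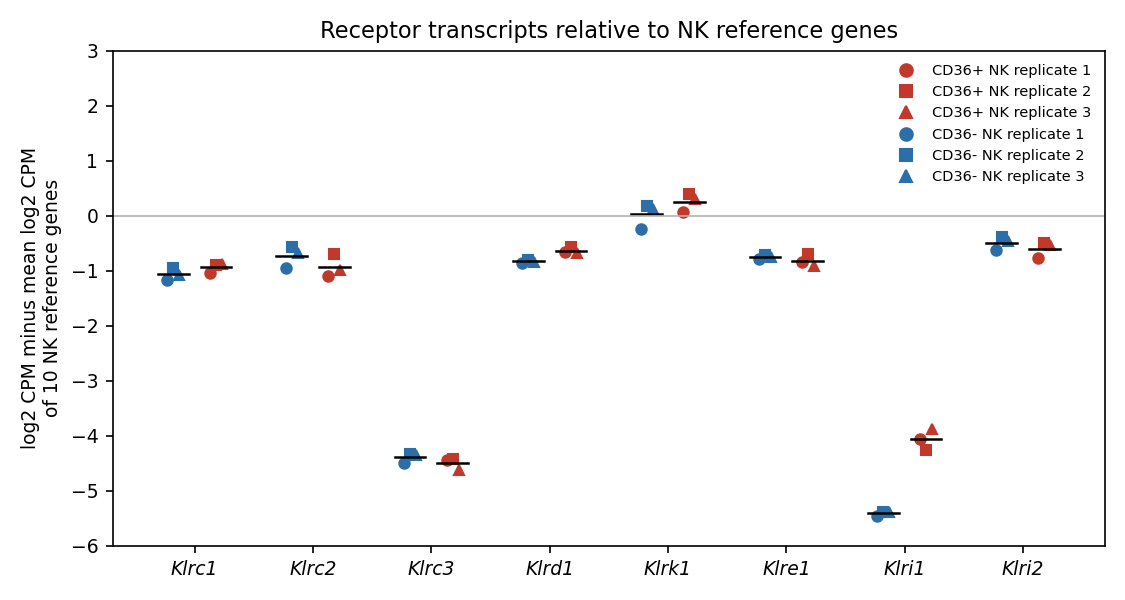
Receptor transcripts relative to NK reference genes: log2 CPM of each receptor minus the mean log2 CPM of 10 NK reference genes in the same library. Points are libraries and black lines are group means. The groups overlap for 6 receptors, differ by 0.20 for Klrd1 and by 1.34 for Klri1.

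Genes of other NK receptor families were lower too. Of 11 Ly49 receptors, 9 were called lower, with a median log2FC of -2.47, and Klra2 and Klra17 were not called (log2FC values 0.78 and -0.14, edgeR adjusted p = 0.194 and 0.917). All 6 genes of the NKR-P1 receptors and KLRG1 were called lower, with a median of -2.40, and Klrb1c among them is also an NK reference gene. Ly49 genes are near-copies of one another and their single values are uncertain.

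The adaptors, signalling proteins and ligands form a pathway list of 22 genes, of which 18 were in the table, 14 were tested and 1 was called. The adaptor gene Hcst, which encodes DAP10, was at 17.2 CPM in CD36+ NK against 32.8 CPM in CD36- NK, a log2FC of -0.92 (SE 0.119, edgeR adjusted p = 0.00589), under the fold threshold. Tyrobp, which encodes DAP12 and is also used by myeloid cells, was at 266 and 346.5 CPM, with a log2FC of -0.38 (SE 0.122, edgeR adjusted p = 0.0938). For each adaptor the 3 CD36+ NK libraries lay under the 3 CD36- NK libraries.

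Of 10 proximal signalling genes (Syk, Zap70, Lcp2, Plcg2, Vav1, Grb2, Pik3r1, Ptpn6, Ptpn11 and Inpp5d), 1 was called lower, 0 were called higher and the median log2FC was 0.12. The called gene was Zap70, a tyrosine kinase of NK and T cells, at 31.0 CPM in CD36+ NK and 106.9 CPM in CD36- NK (log2FC -1.79, SE 0.316, edgeR adjusted p = 0.0167). Its adjusted p rose above 0.05 without replicate 2 (0.0721) or 3 (0.0510) of CD36+ NK, or replicate 1 or 3 of CD36- NK (0.0626 each), with log2FC values from -1.79 to -1.57. Without CD36+ NK replicate 1 the log2FC was -2.22 (edgeR adjusted p = 0.00378). Syk, the related kinase, had the most counts of the list but not the highest FPKM (76.7 and 63.3, under 98.4 and 90.8 for Plcg2 and 124 and 88.8 for Ptpn6), and was at 1064 and 854 CPM, with a log2FC of 0.32 (edgeR adjusted p = 0.0612). Pik3r1, a PI3-kinase subunit, had an adjusted p of 0.0110 at a log2FC of -0.87, under the fold threshold. Ptpn6, the phosphatase SHP-1 that ITIM receptors recruit, was at 633 and 438.5 CPM, with a log2FC of 0.53 (edgeR adjusted p = 0.0512).

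Ligand genes were scarcely counted in either fraction, except for H2-T23, which encodes Qa-1, and Ulbp1, which encodes MULT1. H2-T23 was at 462 CPM in CD36+ NK and 440.5 CPM in CD36- NK, with a log2FC of 0.07 (edgeR adjusted p = 0.716), and Ulbp1 had one of -0.20 (edgeR adjusted p = 0.513). Raet1d, Raet1e, H60b and H60c had 37, 10, 7 and 2 counts over the 6 libraries and were not tested. Raet1a, Raet1b, Raet1c and H60a were not found by symbol and were not analysed here.

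Markers of other cells also differed between the fractions, in both directions. Of all tested genes, 2.98% were called higher in CD36+ NK and 17% were higher without overlap. The summed level of 10 macrophage genes was 2251 to 5584 CPM in CD36+ NK and 364 to 1366 CPM in CD36- NK, with 3 of 8 tested genes called higher and 8 of 8 without overlap. Of genes that mark Kupffer cells, Marco was called higher (log2FC 3.50), Cd5l and Timd4 had log2FC values of 2.90 and 3.05 and were not called, and Clec4f was at 1.51 and 45.9 CPM in CD36+ NK replicates 1 and 2 and at 0 in the other 4 libraries. Of 6 erythroid genes, 5 were called higher, with sums of 329 to 755.5 CPM and 71.2 to 154 CPM. The 5 B cell genes summed to 3800 to 4221 and 2517 to 2930 CPM, with 0 called and 5 of 5 higher without overlap. Of 6 dendritic cell genes, 2 were called higher, Xcr1 (log2FC 2.46) and Clec9a (2.03), with sums of 74.0 to 99.4 and 41.8 to 74.2 CPM. Sinusoidal endothelial markers summed to 33.8 to 91.6 and 3.42 to 18.4 CPM, with 0 of 2 tested called (Stab2 log2FC 2.79), and hepatocyte markers, none of which was tested, to 1.58 to 10.2 and 0.0884 to 0.692 CPM.

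T cells, some of which also express NKG2D and CD94, had 2 of 6 markers called higher in CD36+ NK. Cd4 was at 51.4, 11.3 and 23.9 CPM in CD36+ NK and at 4.59 to 7.78 CPM in CD36- NK (edgeR adjusted p = 0.0396), and Cd8a was at 63.2, 8.98 and 16.5 CPM and at 2.64 to 4.24 CPM (edgeR adjusted p = 0.0396). Both genes were higher in all 3 CD36+ NK libraries, while the CD3 chains were not. Cd3d was at 35.3, 1.32 and 1.33 CPM in CD36+ NK and at 5.54 to 7.52 CPM in CD36- NK, and Cd3g was at 36.9, 3.02 and 1.58 CPM and at 5.31 to 7.33 CPM, so that replicates 2 and 3 of CD36+ NK lay under the CD36- NK libraries. The 6 markers summed to 250.6, 26.1 and 45.8 CPM in CD36+ NK and to 22.9 to 27.7 CPM in CD36- NK, so that replicate 1 stood highest. Cd3e, a chain of the T cell receptor complex, was at 27.0 CPM in that library and at most 1.06 CPM in any other. Without that library all 8 receptors were called lower.

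Of 6 conventional NK markers, 3 were called lower (Eomes, Itga2 and Itgam), the median log2FC was -0.92 and the sums were 1159 to 1333 and 1817 to 2274 CPM. Eomes and Itga2 are also NK reference genes. S1pr5 (-0.74) and Klf2 (-0.20), which guide lymphocyte exit and trafficking, were among those not called. Markers of type 1 innate lymphoid cells, a liver population that shares several of these receptors, had a median log2FC of -0.74, with 0 of 6 called, 2 past adjusted p under a fold of 2 and 3 lower without overlap. Cd200r1 was at a log2FC of 0.45. Those past adjusted p were Itga1 (log2FC -0.90, edgeR adjusted p = 0.00996) and Tnfsf10 (-0.90, edgeR adjusted p = 0.0345), and the sums were 54.0 to 102 CPM in CD36+ NK and 93.6 to 116 CPM in CD36- NK. Of 5 monocyte markers, 1 was called lower, Ccr2 (log2FC -1.35, edgeR adjusted p = 0.00649), the median was -1.14 and the sums overlapped, at 747 to 1557 and 1106 to 1989 CPM. Of 5 neutrophil markers 0 were called, with sums of 2389, 343 and 443 CPM in CD36+ NK replicates 1 to 3 and of 811 to 2022 CPM in CD36- NK. Replicate 1 of CD36+ NK also had the highest erythroid sum, 755.5 CPM against 376 and 329 CPM in replicates 2 and 3. The part of any of these cells in the fall of the receptors was not tested.

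Over the 6 libraries, the tested genes outside the family whose log2 CPM had the highest Pearson correlation with the mean standardised profile of the 8 receptors were Irf2bpl (r = 0.9996), Osbpl3 (0.9995), Klra7 (0.9995), Gm56812 (0.9993) and Arl2bp (0.9991). Their log2FC values were -0.52, -2.22, -2.47, -0.75 and -0.75. The 6 points fall into 2 groups and share libraries, so these values are a description only. Among the receptors, the correlation of log2 CPM was between 0.991 and 1.0 for all combinations without Klri1, and between 0.968 and 0.980 with it.

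Because the receptors lie side by side and fell together, their promoters were read from RefSeq (GRCm38.p6, 250 bases before to 50 after the start, in the direction of the gene). The table held 6 of the 8 members, all but Klrd1 and Klri2, and those shown are the 3 NKG2 genes that pair with CD94 and Klri1. Capitals mark RUNX core motifs, searched as TGTGGT on both strands. Klrc1 is at chr6:129678924-129679223, Klrc2 at chr6:129660507-129660806, Klrc3 at chr6:129643239-129643538 and Klri1 at chr6:129717083-129717382, all on the minus strand. These GRCm38.p6 positions do not match the gene positions given above, so they cannot be combined with them.
Klrc1: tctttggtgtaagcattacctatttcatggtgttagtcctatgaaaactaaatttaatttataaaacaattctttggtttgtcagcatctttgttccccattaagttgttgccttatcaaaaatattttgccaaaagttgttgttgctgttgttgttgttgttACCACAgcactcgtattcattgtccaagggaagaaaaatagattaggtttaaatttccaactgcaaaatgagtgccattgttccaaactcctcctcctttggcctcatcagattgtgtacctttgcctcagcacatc
Klrc2: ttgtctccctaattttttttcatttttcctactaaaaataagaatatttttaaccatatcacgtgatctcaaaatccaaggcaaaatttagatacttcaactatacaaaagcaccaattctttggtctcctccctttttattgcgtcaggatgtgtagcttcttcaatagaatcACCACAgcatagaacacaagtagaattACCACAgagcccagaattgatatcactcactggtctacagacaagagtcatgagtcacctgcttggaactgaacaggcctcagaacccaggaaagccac
Klrc3: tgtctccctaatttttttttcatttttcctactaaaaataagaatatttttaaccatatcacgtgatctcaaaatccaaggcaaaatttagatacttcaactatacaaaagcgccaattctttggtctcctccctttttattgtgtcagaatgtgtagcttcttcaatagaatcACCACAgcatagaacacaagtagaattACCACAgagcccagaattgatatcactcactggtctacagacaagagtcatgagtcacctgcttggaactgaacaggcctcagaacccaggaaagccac
Klri1: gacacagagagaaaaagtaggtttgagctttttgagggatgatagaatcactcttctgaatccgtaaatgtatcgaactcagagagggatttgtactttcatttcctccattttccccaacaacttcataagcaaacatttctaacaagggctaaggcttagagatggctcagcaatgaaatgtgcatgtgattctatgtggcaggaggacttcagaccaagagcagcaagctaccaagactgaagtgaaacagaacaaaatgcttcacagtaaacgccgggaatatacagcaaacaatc
The RUNX core was found in 5 of the 6 members with a promoter (Klrc1, Klrc2, Klrc3, Klrk1 and Klre1) and not in this window of Klri1, and in 16.8% of 32851 promoters of the same length. A T-box motif, AGGTGTGA on either strand, was found in 0 of the 6 and in 1.28% of all promoters, and an ETS motif, AGGAAG on either strand, in 1 of the 6, Klre1, and in 35.4% of all. Klre1 and Klrc2 have more than 1 start in the table, and for a member a match at any start was counted. The shares of all promoters count each start on its own, so the units differ. The RUNX core and the ETS motif of Klre1 were at different starts. The promoters of Klrc2 and Klrc3 were 98.3% identical, each with a pair of RUNX cores, so their matches are not separate cases.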

How the data were processed

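RNA of sorted liver NK cells was measured in 6 libraries. The authors filtered reads with Seqtk, mapped them with HISAT2 (2.0.4 in the submitters' processing notes) and took fragment counts for each gene from StringTie. The authors deposited raw counts beside FPKM values, which are the counts divided by gene length and library total. The notes list a rat assembly, mRatBN7.2, while all identifiers are mouse genes. No columns were left unused, and the lines of 2 genes were rejoined. Columns carry library names and were matched to samples by them.

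Counts were tested with edgeR 4.0.16 in R 4.3.3 (TMM, filterByExpr with a minimum count of 10, quasi-likelihood test, group only), with calls at the study's thresholds, adjusted p below 0.05 and fold above 2. Each SE is the size of the log2FC divided by the square root of F. Ratios used log2 CPM after adding 2 counts, with exact two-sided permutation tests over 3 against 3 libraries (smallest p 0.1). The biological coefficient of variation was 20.3%. Replicates differed by more than sampling noise (chi-square per degree of freedom 14.8 to 29.2), so none was merged. If replicates came from 1 pool of animals, p-values measure technical spread only. Named genes are the 8 members, Cd36, called pathway genes and otherwise the most counted, the 3 most counted NK reference genes, at most 2 each of the Ly49 and NKR-P1 lists, and 5 genes of like pattern. Klra2, Klra17, Hcst, Tyrobp, Pik3r1, Ptpn6, Plcg2, Ulbp1, untested ligand genes, the marker genes and Gm44135 were named after their values were seen. Members and lists were chosen with earlier results of these data known. Alternatives were DESeq2 1.42.0, other scalings and filters, blocks and left-out libraries. The edgeR script was tested on simulated data. Alignments used Biopython 1.88.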

Additional observations from a re-analysis of the deposited data

How the results depend on the processing

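The fall of the receptors was called for 8 of 8 genes with DESeq2, RLE or upper-quartile scaling, either other filter, and adjusted p alone, and for 7 or 8 when 1 library or replicate 1 of both groups was left out, the lost call being Klri1. Scaling to the NK reference genes, which by construction removes a change common to NK genes, left 1 of 8 receptors called, 0 of 10 NK reference genes (10 of 10 in every fit with a library left out) and 13 of 14 pathway genes. Under it Klrc1, Klrd1, Klrk1 and Klri1 changed sign, with log2FC values of 0.108, 0.186, 0.213 and 1.32 (adjusted p = 0.543, 0.265, 0.301 and 0.000461). Adjusted p alone gave 3 of 14 pathway genes in place of 1, and left-out libraries gave 0 to 1. For the log2 ratio of Klrk1 to Klrd1, the difference between the groups ran from -0.084 to 0.12 with 1 library left out. That difference changed sign without replicate 2 (-0.004) or 3 (-0.015) of CD36+ NK or replicate 1 of CD36- NK (-0.084), and the cause was not tested. Deviations of libraries with the same title number correlated at 0.310, 0.0515 and -0.0837 across genes, so the title numbers were not taken to pair the samples. Pairing by the numbers in the library names was not tested. A block on the title number left 8 of 8 receptors, 10 of 10 NK reference genes and 1 of 14 pathway genes called, and 560 genes of all tested in place of 880. Over all tested genes, calls ran from 417 to 1160 with 1 library left out, and were 433 without replicate 1 of both groups, 14334 under the NK reference scaling and 1143 with DESeq2. For CD36- NK, titles and library names are numbered differently. Klri1 and Klrc3, with the fewest counts, are the receptors whose values depth limits most.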

Other observations

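Gm44135, a gene of unnamed function, lies on the minus strand, 732 bases past the end of Klri1 in the direction of both genes. It was lower in CD36+ NK. It had 1.19 ± 0.132 CPM there, against 2.91 ± 0.751 CPM in the other fraction (SD over 3 libraries, log2FC -1.28, SE 0.299, edgeR adjusted p = 0.0390). It was chosen after its values were seen and rests on 146 counts over 6 libraries.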
